A study of Solanum lycopersicum with 36 samples.

Results

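The difference between shoots and roots was measured in tomato plants mutated in SDG33, gene by gene, and compared with the same difference in wild type (WT). It was taken from the 6 shoot and 6 root RNA-Seq libraries labelled sdg33, which are 12 of the 36 libraries of the series. The 12 WT libraries (cultivar Castlemart II) served as the reference and the 12 sdg34 libraries as a further comparison. Plants of every genotype were grown hydroponically with nitrogen (N), starved of N, and then given medium with nitrate and ammonium (+N) or without N (-N), before shoots and roots were harvested apart. Each of the 12 groups of genotype, organ and N level has 3 libraries, and each library is a pool of 3 plants. The sdg33 plants carry a CRISPR mutation, and 1 mutant line was profiled, so a line and its mutation cannot be told apart. The deposited values are whole numbers that were quantile normalized over all 36 libraries, so every library has the same total (19667069) and the number of reads behind a value is unknown. An organ difference is given below as shoot minus root on the log2(value + 1) scale. It is said to be called when limma gave an adjusted p under 0.05 and a size over 2. That scale understates the difference of genes with low values. In bulk organs, fewer cells of a type and less RNA per cell cannot be told apart.

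SDG33 and SDG34 are SET domain proteins, homologs of Arabidopsis SDG8, which methylates lysines of histone H3 in the bodies of transcribed genes. Shoots and roots of a plant hold the same genome and differ in which genes are transcribed. Leaves make the light-harvesting complexes and photosystems, while roots take up nitrate, phosphate and sulfate through dedicated transporters. Chromatin marks are one layer through which such organ-restricted transcription is kept.

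SDG33 itself (Solyc04g057880.3) was read in both organs of the mutant. Here and below, 3 values after a group are the lowest, the median and the highest of its 6 libraries. SDG33 had 136, 225.5 and 284 in sdg33 shoots and 319, 371.5 and 462 in sdg33 roots, against 380, 401 and 562 in WT shoots and 392, 460 and 525 in WT roots. Every sdg33 shoot library lay below every WT shoot library, while the roots overlapped. The organ difference of SDG33 was -0.82 in sdg33 and -0.12 in WT, and the 2 differed by -0.70 (SE 0.14, adjusted p = 0.000306). With the +N libraries alone the difference was -0.28 and did not pass the test (adjusted p = 0.154). Shoots of sdg34 had 204 to 410, and the organ difference of SDG33 there was -0.64. It did not differ from that of sdg33 by the test (-0.18, SE 0.16, limma adjusted p = 0.611). Within shoots, sdg33 was below sdg34 by -0.51 (limma adjusted p = 0.00305). The shift from WT is thus not particular to sdg33. Transcript remained in sdg33, and a CRISPR mutation need not remove it.

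The organ labels were checked with marker genes. The summed values of 6 light-harvesting and photosystem genes ranged from 65035 to 97908 in sdg33 shoots and from 350 to 626 in sdg33 roots, against 17855 to 60576 in WT shoots and 194 to 343 in WT roots. The summed values of 4 root genes ranged from 2677 to 6864 in sdg33 shoots and from 27919 to 47691 in sdg33 roots, against 732 to 1284 in WT shoots and 42987 to 81825 in WT roots. A high affinity potassium transporter on the root list (Solyc09g074820.3) was between 0 and 9 in all of these libraries, so it marked neither organ. Other members of the root list moved apart in roots. A high affinity nitrate transporter gene (Solyc06g074990.2) had 5136 to 19084 in sdg33 roots and 24130 to 49492 in WT roots. A peroxidase gene (Solyc02g092580.3) had 8049 to 13419 in sdg33 roots and 5329 to 8836 in WT roots. Both sums were higher in sdg33 shoots than in WT shoots in every library, and their part in the results was not tested. Replicates agreed least in -N shoots of WT (Pearson r of 0.9536 to 0.9729 between pairs, across genes), and in sdg33 the lowest agreement was in +N shoots (0.9748 to 0.9825).

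In sdg33, 6234 of 21728 genes tested (28.7%) were called between the organs, with 3240 higher in shoots (14.9%) and 2994 higher in roots (13.8%). The same fit of the WT libraries called 6633 of 21875 genes (30.3%), with 3471 higher in shoots (15.9%) and 3162 higher in roots (14.5%). Without the limit on size, 17105 genes (78.7%) had an adjusted p under 0.05 in sdg33. Of the 21302 genes tested in both genotypes, 5150 were called in both, which was 85.7% of the sdg33 calls and 81.7% of the WT calls. Of these, 5144 had the same direction. Across these genes the organ differences of sdg33 and WT had a Pearson r of 0.937 and a Spearman rho of 0.842, which describes genes and not independent replicates. Organ differences were somewhat smaller in the mutant, with an SD across genes of 2.77 in sdg33 and 2.90 in WT. Genes with at least 10 in all 6 root libraries and 0 listed in all 6 shoot libraries numbered 251 in sdg33 and 397 in WT. The reverse pattern was found for 169 genes in sdg33 and 159 in WT.

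**Figure D1:**
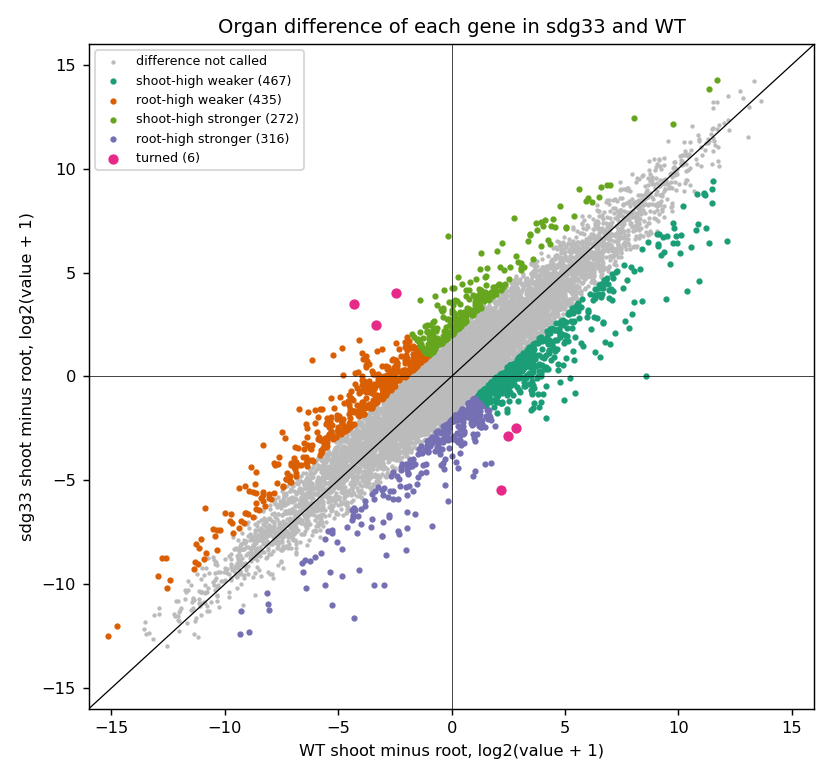
Organ difference of each gene in sdg33 (vertical) against WT (horizontal), both as shoot minus root on the log2(value + 1) scale from the fit of 24 libraries. Each point is a gene, the diagonal marks equal differences, and colors mark the 1496 genes whose organ difference differed between sdg33 and WT. Most genes lie along the diagonal. The 6 turned genes lie in the quadrants of opposite sign, as do other genes for which not both organ differences were called.

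Of the 6234 genes called in sdg33, 803 have a description here, and rankings hold among these. The described genes with the strongest shoot preference encode chlorophyll a/b binding proteins, which hold chlorophyll in the light-harvesting antenna. Solyc02g070980.1 had 16198, 27949.5 and 35724 in sdg33 shoots and 0, 0 and 2 in sdg33 roots, against 3298, 10199 and 16912 in WT shoots and 0, 1 and 5 in WT roots. Its organ difference was 14.26 in sdg33 and 11.71 in WT, and was stronger in sdg33 by 2.56 (SE 0.42, adjusted p = 3.77e-05). Solyc02g070990.1 had 7561, 15401 and 21078 in sdg33 shoots, against 583, 4337 and 7632 in WT shoots, and it was listed at 0 in all roots of both genotypes, so no fold is given. Solyc06g069730.3, a light-harvesting complex I gene, had an organ difference of 13.21 in sdg33 and 11.54 in WT, a difference of 1.67 (SE 0.43, adjusted p = 0.00318). In these 3 genes the roots were at or near 0 in both genotypes and the shoots were on average higher in the mutant. A further chlorophyll a/b binding gene, Solyc02g071000.1, had 13.21 in sdg33 and 11.72 in WT (difference 1.49, SE 0.54, adjusted p = 0.0277). With the +N libraries alone the differences of Solyc02g071000.1 and Solyc06g069730.3 from WT did not pass the test (0.85, adjusted p = 0.411, and 1.51, adjusted p = 0.0867). With a pseudocount of 0.1 they did not pass either (0.57, adjusted p = 0.763, and 1.70, adjusted p = 0.2), and Solyc02g071000.1 did not pass with array weights (adjusted p = 0.0641). Chlorophyll a/b binding proteins form a multigene family, and the counting could split reads among close copies.

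Other antenna and photosystem genes had smaller organ differences in sdg33. Solyc01g105050.3, a light-harvesting complex II gene, had 28517, 29642.5 and 33188 in sdg33 shoots and 150, 176 and 196 in sdg33 roots, against 10765, 16734 and 28174 in WT shoots and 170, 188 and 262 in WT roots. Every sdg33 shoot library was above every WT shoot library, and the organ difference of 7.42 in sdg33 exceeded that of WT by 1.01 (SE 0.13, adjusted p = 1.62e-06), though not with the +N libraries alone (0.43, adjusted p = 0.105). The light-harvesting complex II genes Solyc02g070970.1 and Solyc08g067320.2 had organ differences of 12.92 and 10.06 in sdg33, and their differences from WT did not pass the test (1.41, adjusted p = 0.0691, and 1.06, adjusted p = 0.136). With a pseudocount of 10 both passed (1.615, adjusted p = 2.56e-06, and 1.62, adjusted p = 6.02e-07). Every sdg33 shoot library was above every WT shoot library for both genes, with a lowest value of 21550 in sdg33 against a highest of 20076 in WT, and 2958 in sdg33 against 2115 in WT. Solyc01g087040.2, which encodes a PsbP-type protein of photosystem II, was higher in sdg33 than in WT in both organs, by 3.36 in shoots and 2.67 in roots. Its organ difference was stronger in sdg33 by 0.69 (SE 0.15, adjusted p = 0.000724), but with the +N libraries alone the value was -0.49 (adjusted p = 0.056). The photosystem II gene Solyc11g008480.2 had 238, 315 and 530 in sdg33 shoots and 38, 97.5 and 197 in WT shoots, and it was listed at 0 in all 6 sdg33 roots. Its organ difference was called stronger than in WT (limma, adjusted p = 1.56e-05).

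Of the 12 light-harvesting, photosystem and chlorophyll genes tested in sdg33, 11 were called higher in shoots and 1 higher in roots. The median sdg33 minus WT difference over the 13 genes tested against WT was 1.06, beside 0.05 over all genes, and it depends on the pseudocount where an organ was at 0. Of these 13, 4 were called stronger, beside 2.63% of all genes, and 1 was called weaker, beside 4.03%. The 4 were Solyc02g070980.1, Solyc02g070990.1, Solyc11g008480.2 and a chlorophyllase gene (Solyc09g082600.2) that was root-high. The weaker one was the chlorophyllase gene Solyc09g065620.3, whose product splits chlorophyll. It had 248, 461 and 585 in sdg33 shoots and 1767, 2070.5 and 3432 in WT shoots, and it was listed at 0 in all roots of both. Nearly all described genes had been picked by the study as changed by genotype in these libraries, so the counts of this and the lists below are no independent evidence of a direction.

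Among called genes with a description, the 5 with the strongest root preference in sdg33 are given next. A defensin-like gene (Solyc07g008980.3), of a family of small antimicrobial peptides, had 0, 4.5 and 9 in sdg33 shoots and 20502, 26245 and 33706 in sdg33 roots, against 0, 0 and 3 in WT shoots and 10525, 13923 and 22676 in WT roots. Shoot minus root was -12.42 in sdg33 and -13.50 in WT (difference 1.07, SE 0.55, adjusted p = 0.111). A subtilisin-like protease gene (Solyc08g079930.2) had 5, 8 and 18 in sdg33 shoots and 31926, 37750 and 47455 in sdg33 roots, against 0, 0 and 2 in WT shoots and 27824, 33729.5 and 37682 in WT roots. Its root preference was weaker in sdg33 by 2.76 (SE 0.32, adjusted p = 5.55e-07), a difference that rests on shoot values of at most 18. A germin-like gene (Solyc01g102380.4) had an organ difference of -11.81 in sdg33 and -13.53 in WT (difference 1.72, SE 0.61, adjusted p = 0.0246). It did not pass the test with a pseudocount of 10 (0.37, adjusted p = 0.105), in the joint fit (0.089), with array weights (0.0629) or with either N level alone (0.0926 under -N and 0.147 under +N).

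In 2 other root genes the mutant roots stood far above WT roots. ACC oxidase 5 (Solyc07g026650.3), of the enzyme family that makes ethylene, had 1, 3.5 and 9 in sdg33 shoots and 13592, 25858.5 and 35724 in sdg33 roots, against 186, 543 and 1090 in WT roots and 0 in all 6 WT shoots. A respiratory burst oxidase gene (Solyc01g099620.3), of the NADPH oxidases that make superoxide at the cell surface, had 0, 1 and 5 in sdg33 shoots and 7838, 10788 and 17744 in sdg33 roots, against 0, 0 and 1 in WT shoots and 320, 908 and 1094 in WT roots. Roots of sdg33 exceeded WT roots by 5.66 for ACC oxidase 5 and by 3.97 for the oxidase gene on the log2 scale, with no overlap of libraries. The organ difference of the oxidase gene was stronger in sdg33 by -3.04 (SE 0.51, adjusted p = 5.03e-05). With a pseudocount of 0.1 neither gene's organ difference differed from WT (adjusted p = 0.268 for the oxidase gene and 0.542 for ACC oxidase 5).

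The next comparison asked which were weaker or stronger in sdg33 than in WT. Of 22468 genes tested, 1496 were called (6.66%), with 905 weaker (4.03%) and 591 stronger (2.63%) in sdg33, counting turned genes by size. The difference was positive for 710 (3.16%) and negative for 786 (3.5%), and 10936 had an adjusted p under 0.05 (48.7%). Genes with the higher level in shoots, taken over both genotypes, were weaker in 467 cases (2.08%) and stronger in 272 (1.21%). Genes with the higher level in roots were weaker in 435 cases (1.94%) and stronger in 316 (1.41%). In 6 genes (0.0267%) the direction turned, with both organ differences called. Weaker and stronger compare absolute sizes. These classes therefore also hold genes whose organ difference changed sign without both organ differences being called. The median organ difference was 0.46 in sdg33 and 3.40 in WT for the shoot-high weaker genes, and -1.11 in sdg33 and -3.94 in WT for the root-high weaker genes. For the stronger genes it was 3.06 in sdg33 and 0.36 in WT where shoots were higher, and -2.95 in sdg33 and -0.16 in WT where roots were higher. These medians describe genes selected on the same values. With a pseudocount of 10 the number called fell to 730, and with a requirement that the organ with the lower level reach a mean of 10 in sdg33 or WT (chosen after seeing the data) it was 987.

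**Figure D2:**
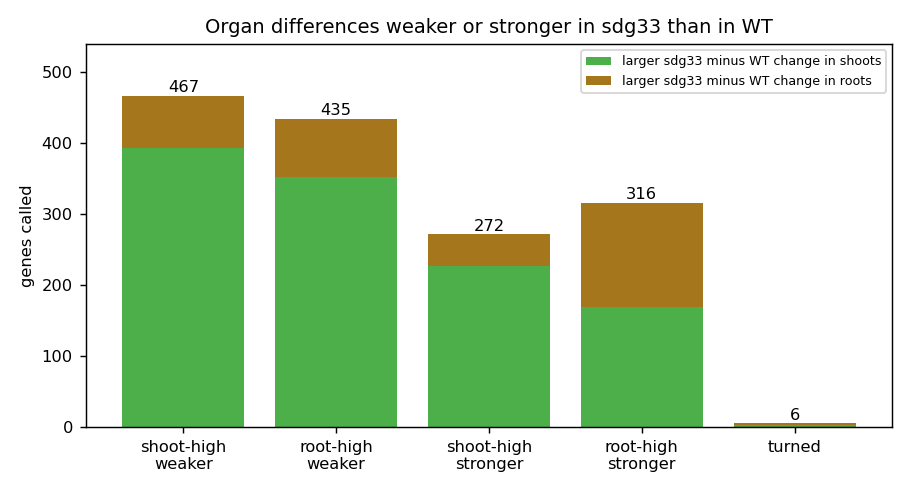
Number of genes called in each class of organ difference, by the organ with the larger sdg33 minus WT change. Bars start at 0 and the number above each is the class total. Of the 1496 genes, 1146 changed more in shoots, and in the root-high stronger class 146 of 316 changed more in roots.

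The change between genotypes lay mostly in shoots. Of the 1496 genes, 1146 (76.6%) had the larger sdg33 minus WT change in shoots and 350 in roots. Over all 22468 genes tested, the median absolute change was also larger in shoots, at 0.5 against 0.307 in roots. The share of all genes with the larger change in shoots was not counted, so the 76.6% is not shown to be particular to the called genes. Within shoots, 1278 genes (5.69%) were called between sdg33 and WT, with 680 higher (3.03%) and 598 lower (2.66%) in sdg33. Within roots, 434 genes (1.93%) were called, with 313 higher (1.39%) and 121 lower (0.539%). The next counts use an adjusted p under 0.05 alone, which 32.4% of all genes passed as higher and 27.9% as lower in sdg33 shoots, and 18.8% as higher and 19.2% as lower in sdg33 roots. Each class fixes the sign of the shoot change minus the root change. The directions below are therefore largely set by selection, and the counts show only how the change was split between organs. In the root-high weaker class, 252 of 435 genes were higher in sdg33 shoots and did not pass the test in roots, and 102 were higher in shoots and lower in roots. In the shoot-high weaker class, 282 of 467 genes were lower in sdg33 shoots alone and 109 were lower in shoots and higher in roots. In the root-high stronger class roots had the larger change in 146 of 316 genes, and 89 genes were lower in shoots and higher in roots.

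Root-high genes with a weaker difference were led by genes that were low in WT shoots and on average higher in sdg33 shoots. A NAC transcription factor gene (Solyc07g066330.3), described by Arabidopsis NAC1, had 1370, 1913 and 2282 in sdg33 shoots and 486, 750 and 997 in sdg33 roots, against 17, 20.5 and 28 in WT shoots and 417, 678 and 1058 in WT roots. The root libraries of the genotypes overlapped while the shoots were far apart, and the organ difference was 1.34 in sdg33 and -4.85 in WT (difference 6.20, SE 0.18, adjusted p = 9.99e-16). A lipid-transfer type gene (Solyc08g079230.1) had 2551, 3859 and 6454 in sdg33 shoots and 1602, 2205.5 and 3112 in sdg33 roots, against 12, 37 and 104 in WT shoots and 2232, 2699 and 3446 in WT roots. The organ difference was 0.78 in sdg33 and -6.15 in WT (difference 6.93, SE 0.42, adjusted p = 4.38e-11). A gene described as a CAP-Gly domain linker (Solyc02g068170.1) had an organ difference of 1.75 in sdg33 and -4.11 in WT (difference 5.86, SE 0.43), with 152, 191 and 308 in sdg33 shoots and 0, 4.5 and 17 in WT shoots. In a fatty acid desaturase gene (Solyc04g040120.1) both organs moved, with a sdg33 minus WT change of 3.27 in shoots and -1.905 in roots, and the difference of the organ differences was 5.18 (SE 0.65, adjusted p = 1.41e-06). The desaturase gene had 10, 29.5 and 72 in sdg33 shoots and 0, 2.5 and 14 in WT shoots, which overlapped at low values.

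Shoot-high genes with a weaker difference were led by genes that were nearly lost from sdg33 shoots. A B-box zinc finger gene with a CCT domain (Solyc11g068390.1), of a family that includes the flowering regulator CONSTANS, had 260, 336 and 618 in WT shoots and was listed at 0 in every sdg33 library and in every WT root library. A tetratricopeptide repeat gene (Solyc06g068130.3) had 12, 23.5 and 47 in sdg33 shoots, against 1057, 1757 and 4177 in WT shoots, and was listed at 0 in all roots of both. A glycosyltransferase gene (Solyc10g085870.1) had 26, 38 and 74 in sdg33 shoots and 0, 1.5 and 5 in sdg33 roots, against 1437, 1891 and 3232 in WT shoots and 0, 0.5 and 2 in WT roots. Shoot minus root was 4.10 in sdg33 and 10.39 in WT (difference -6.285, SE 0.44, adjusted p = 3.75e-10). A gibberellin 2-oxidase gene (Solyc10g007570.3), of the enzymes that inactivate gibberellin, had 0, 1 and 6 in sdg33 shoots and 0, 4 and 9 in sdg33 roots, against 101, 142 and 443 in WT shoots and 0, 3 and 15 in WT roots (difference -6.26, SE 0.81, adjusted p = 1.9e-06). In all 4 genes the shoot libraries of sdg33 and WT did not overlap, and no sdg33 or WT root library exceeded 15. Shoots of sdg34 were below WT shoots too, with highest values of 4, 175, 110 and 4 in the order given. The loss was therefore not particular to sdg33.

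The described shoot-high genes with the largest gain in sdg33, given next, had low values in WT in both organs. Other named genes of this class, such as Solyc02g070980.1, Solyc02g070990.1 and Solyc11g008480.2, had higher medians in WT shoots. Solyc06g066420.3, described as oxidative stress 3, had 212, 385 and 730 in sdg33 shoots and 1, 2 and 8 in sdg33 roots, against 0, 0 and 8 in WT shoots and 0, 0.5 and 2 in WT roots. Shoot minus root was 6.78 in sdg33 and exceeded that of WT by 6.94 (SE 0.71, adjusted p = 8.42e-08). A glutaredoxin gene (Solyc01g067460.2), of small thiol enzymes, had 173, 242 and 336 in sdg33 shoots and 0, 12.5 and 46 in WT shoots. Its WT shoots differed by N level, with 0 to 1 under -N and 24 to 46 under +N, while all 6 WT roots were listed at 0. Lower values were found for a UPF0301 gene (Solyc02g067050.3), with 45, 110 and 229 in sdg33 shoots and 0, 3 and 8 in WT shoots. A VQ motif gene (Solyc07g056600.1), of a family of cofactors of WRKY factors, had 12, 20 and 28 in sdg33 shoots and 0, 1 and 3 in WT shoots.

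Root-high genes with a stronger difference were of both kinds. An organic cation transporter gene (Solyc05g053860.3) had 327, 1548.5 and 3232 in sdg33 roots, against 1, 20.5 and 44 in WT roots, and was listed at 0 in all shoots of both genotypes. In sdg33 roots it had 327 to 420 under -N and 2677 to 3232 under +N. A gene described as a Meloidogyne-induced giant cell protein (Solyc02g067440.3) had 0, 4.5 and 12 in sdg33 shoots and 4776, 11880.5 and 24078 in sdg33 roots, against 0, 2.5 and 20 in WT shoots and 18, 206 and 448 in WT roots. Shoot minus root was -11.03 in sdg33 and -5.28 in WT (difference -5.75, SE 0.84, adjusted p = 9.15e-06). A late embryogenesis abundant protein gene (Solyc09g061730.2) reached the class through its shoots, with 0, 1.5 and 10 in sdg33 shoots and 40, 67 and 101 in sdg33 roots, against 104, 196 and 388 in WT shoots and 44, 108 and 177 in WT roots. The chlorophyllase gene Solyc09g082600.2 had 0, 0 and 6 in sdg33 shoots and 4, 31.5 and 110 in sdg33 roots, against 0, 3.5 and 10 in WT shoots and 0, 0 and 2 in WT roots (difference -5.91, SE 0.75, adjusted p = 1.66e-06).

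In the turned genes the organ with the higher level changed, and 4 of the 6 have a description. ERF E.2 (Solyc09g089930.2), an ethylene response factor, had 102, 279 and 857 in sdg33 shoots and 12, 29 and 46 in sdg33 roots, against 0, 3 and 22 in WT shoots and 27, 71 and 226 in WT roots. The shoots and roots did not overlap in either genotype, and the difference of the organ differences was 7.78 (SE 0.81, adjusted p = 1.23e-07). A PHD finger gene (Solyc06g082040.2), of a domain that reads histone tails in many proteins, had 2, 3.5 and 7 in sdg33 shoots and 136, 221 and 387 in sdg33 roots, against 38, 86.5 and 178 in WT shoots and 8, 18.5 and 36 in WT roots. Shoot minus root was -5.47 in sdg33 and 2.18 in WT (difference -7.65, SE 0.53, adjusted p = 2.99e-10). An HXXXD-type acyltransferase gene (Solyc05g052670.1) had 162, 281.5 and 614 in sdg33 shoots and 11, 17.5 and 31 in sdg33 roots, against 21, 31.5 and 87 in WT shoots and 112, 220 and 308 in WT roots. An AP2/B3 factor gene (Solyc04g007000.1), described by Arabidopsis RAV1, had 592, 1113 and 1906 in sdg33 shoots and 112, 197.5 and 334 in sdg33 roots, against 1, 7 and 13 in WT shoots and 44, 63 and 110 in WT roots. Both were shoot-high in sdg33 and root-high in WT, by 6.46 (SE 0.43) and 5.82 (SE 0.41) in the difference of the organ differences.

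**Figure D3:**
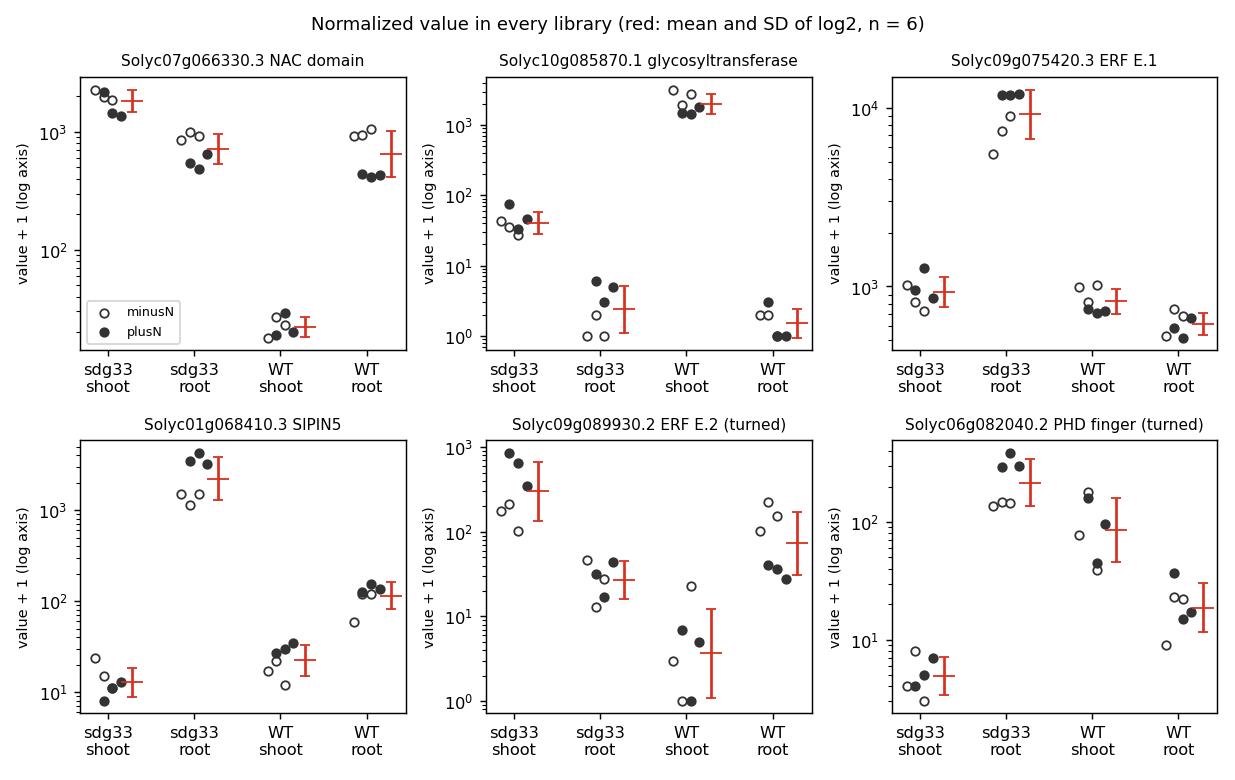
Normalized value plus 1 on a log axis in each library for 6 genes, with sdg33 shoots and roots left of WT shoots and roots. Open points are -N libraries, filled points +N libraries, and red marks show the mean and SD of log2(value + 1) over 6 libraries. The NAC gene differs between genotypes in shoots, ERF E.1 and SlPIN5 differ in roots, and the 2 turned genes change the organ with the higher level.

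Among transporter genes, the 3 given next had a weaker root preference in sdg33, while the mineral ion list as a whole went both ways. The NRT2.1-like high affinity nitrate transporter gene (Solyc06g074990.2), which in Arabidopsis takes up nitrate at low supply, had 6, 25 and 88 in sdg33 shoots and 5136, 12094.5 and 19084 in sdg33 roots, against 3, 4 and 14 in WT shoots and 24130, 38221 and 49492 in WT roots. Roots of sdg33 were below WT roots in every library, and the organ difference was -8.76 in sdg33 and -12.60 in WT (difference 3.84, SE 0.47, adjusted p = 1.03e-06). A sulfate transporter gene (Solyc12g056920.2) had 63, 70 and 94 in sdg33 shoots and 460, 575.5 and 747 in sdg33 roots, against 1, 2.5 and 4 in WT shoots and 415, 562.5 and 667 in WT roots. Its difference from WT lay in shoots, and the organ difference was -2.98 in sdg33 and -7.33 in WT (difference 4.35, SE 0.24, adjusted p = 1.58e-11). The phosphate transporter 1 gene (Solyc09g090070.1) had an organ difference of -2.01 in sdg33 and -4.46 in WT (difference 2.45, SE 0.14, adjusted p = 3.19e-11), with 2116, 3935.5 and 5409 in sdg33 shoots and 586, 824 and 988 in WT shoots.

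NRT1.1 (Solyc08g078950.3), the dual affinity nitrate transporter and sensor of Arabidopsis, had 3746, 5137 and 6222 in sdg33 shoots and 9012, 11563.5 and 13986 in sdg33 roots, against 2244, 4113.5 and 5426 in WT shoots and 4678, 6962.5 and 8592 in WT roots. Roots of sdg33 were above WT roots in every library, by more under -N than under +N. Under -N the roots had 12602 to 13986 in sdg33 and 4678 to 5879 in WT. Under +N they had 9012 to 10525 in sdg33 and 8046 to 8592 in WT. Averaged over N, the organ difference of -1.18 in sdg33 and -0.78 in WT did not pass the test of their difference (-0.40, SE 0.17, adjusted p = 0.0562). It did pass under 7 of the alternatives, with values between -0.40 and -0.52 and adjusted p between 0.00398 (array weights) and 0.0478 (a pseudocount of 10), the replicate blocks among them (0.0319 and 0.0388). Solyc06g075510.3, annotated APETALA2e in the gene models and described by Arabidopsis nitrate excretion transporter1, had 184, 258.5 and 322 in sdg33 shoots and 194, 238.5 and 314 in sdg33 roots, against 2220, 2964.5 and 5304 in WT shoots and 381, 616.5 and 1104 in WT roots. The organs overlapped in sdg33 and were apart in WT, with a difference of -2.41 (SE 0.20, adjusted p = 5.11e-09). Of the 6 nitrate genes tested against WT, 2 were called, both weaker, and 4 had an adjusted p under 0.05. Of all genes, 4.03% were weaker, 2.63% stronger and 48.7% had an adjusted p under 0.05, shares that also apply to the next lists. Of 12 genes of mineral ion transport, 5 were weaker and 4 stronger, with a median difference of -1.71. Of 9 genes of amino acid transport and glutamate metabolism, 4 were called, all weaker in absolute size. Among them was glutamine dumper 4 (Solyc12g096490.1, 1.72 in sdg33 and -1.88 in WT), of a family that promotes amino acid export. It was shoot-high in sdg33 and root-high in WT, at nearly equal size. Another was a cationic amino acid transporter (Solyc11g006710.2, 0.12 in sdg33 and -2.68 in WT).

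SlPIN5 and ERF E.1, genes of auxin and ethylene, differed from WT most in roots. SlPIN5 (Solyc01g068410.3), of the auxin efflux carrier family, had 7, 11 and 23 in sdg33 shoots and 1150, 2364 and 4254 in sdg33 roots, against 11, 23.5 and 34 in WT shoots and 58, 122.5 and 154 in WT roots. The resulting organ difference was -7.43 in sdg33 and -2.35 in WT (difference -5.08, SE 0.30, adjusted p = 2.87e-11). ERF E.1 (Solyc09g075420.3) had 732, 906.5 and 1274 in sdg33 shoots and 5548, 10404.5 and 11940 in sdg33 roots, against 706, 782.5 and 1015 in WT shoots and 516, 625.5 and 746 in WT roots. The sdg33 roots stood above the sdg33 shoots and both WT organs, and overlapped the sdg34 roots, which had 4862 to 13592. The organ difference of -3.31 in sdg33 differed from that of WT by -3.73 (SE 0.17, adjusted p = 6.6e-13). Solyc12g056980.1, an ethylene-responsive element binding factor, went the other way, with 1499, 1798.5 and 2310 in sdg33 shoots and 64, 131.5 and 307 in WT shoots (difference 3.19, SE 0.16). Solyc01g099840.3, a dormancy and auxin associated gene, had 7112, 10373.5 and 11966 in sdg33 shoots and 1578, 2317 and 3014 in sdg33 roots, against 1760, 2611 and 2732 in WT shoots and 3762, 4386 and 6530 in WT roots.

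Of 41 auxin genes tested against WT, 14 were stronger and 8 weaker, beside 2.63% and 4.03% of all genes. By the call within shoots, 24 were higher and 9 lower in sdg33, beside 3.03% and 2.66%. The 3 SAUR-like genes that the study names had smaller differences. Solyc01g091030.3 was stronger in sdg33 by 1.68 (SE 0.27, adjusted p = 3.02e-05) and Solyc07g066560.1 by 1.34 (SE 0.23, adjusted p = 4.77e-05), while Solyc01g096340.3 differed by -0.16 (SE 0.19, adjusted p = 0.52). SAUR genes are early auxin response genes. Of 27 ethylene genes, 10 were weaker, 5 stronger and 1 turned.

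Genes of transcriptional control had organ differences that moved in either direction. Of 15 B-box, CONSTANS-like and flowering genes tested against WT, 10 were weaker and 1 stronger, beside 4.03% and 2.63% of all genes, shares that also apply to the lists below. The CONSTANS-like gene Solyc12g006240.2 had 154, 209.5 and 289 in sdg33 shoots and 318, 333 and 450 in sdg33 roots, against 1930, 2110.5 and 2634 in WT shoots and 583, 710.5 and 762 in WT roots. Both organs were lower in sdg33, shoots more so, and the organ difference was -0.79 in sdg33 and 1.64 in WT (difference -2.43, SE 0.12, adjusted p = 3.29e-12). Of 26 homeobox and MADS-box genes, 6 were weaker and 7 stronger, and 12 of the 13 differences were negative. The list includes MYB-type factors with a homeodomain-like fold, such as Solyc10g076820.2 (-0.92 in sdg33 and 2.42 in WT). The homeobox leucine zipper gene Solyc05g006980.3 had 100, 147.5 and 212 in sdg33 shoots and 314, 386 and 606 in sdg33 roots, against 147, 161 and 209 in WT shoots and 32, 47 and 60 in WT roots.

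LOB domain genes, a plant family of transcription factors, had 4 weaker and 2 stronger organ differences of 10 tested. Both named members are described by Arabidopsis LBD37, which represses anthocyanin and N genes there. Solyc02g092550.3 had an organ difference of 2.17 in sdg33 and -1.08 in WT (difference 3.24, SE 0.30, adjusted p = 1.98e-08), with 252, 1280.5 and 2866 in sdg33 shoots and 13, 192.5 and 445 in WT shoots. Solyc01g107190.3 had 1.15 in sdg33 and -1.57 in WT (difference 2.72, SE 0.25). Its sdg33 organ difference depended on N, with 2.52 under -N and -0.22 under +N. WT values also moved with N, so this dependence is not shown to be particular to sdg33. WT shoots had 35 to 84 under -N and 486 to 612 under +N. WT roots had 35 to 51 under -N and 4564 to 5704 under +N, so the pooled WT value averages unlike N levels.

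Cell wall and redox enzymes also changed their organ balance. Of 13 peroxidase genes tested against WT, 5 were weaker and 3 stronger, and all 8 called had a positive difference. Peroxidases of this class act on cell wall phenolics. Solyc02g079500.4 had 829, 1263 and 2061 in sdg33 shoots and 442, 560.5 and 838 in sdg33 roots, against 158, 215.5 and 498 in WT shoots and 431, 536.5 and 632 in WT roots (difference 2.38, SE 0.28, adjusted p = 5.72e-07). Expansin 2 (Solyc06g049050.3), a wall-loosening protein, had an organ difference of 1.99 in sdg33 and -0.93 in WT (difference 2.92, SE 0.25, adjusted p = 6.1e-09). A xyloglucan endotransglucosylase-hydrolase (Solyc11g066270.2) had -3.99 in sdg33 and -1.70 in WT (difference -2.29, SE 0.20). Of 23 cell wall genes, 5 were weaker and 5 stronger. A late embryogenesis abundant protein gene (Solyc06g009140.3) had -1.06 in sdg33 and -3.77 in WT. In sdg33 it was 0.68 under -N (adjusted p = 0.00188) and -2.81 under +N (adjusted p = 1.98e-06), so the pooled value averages opposite directions. Of 19 such genes and dehydrins 4 were weaker and 3 stronger. Of 10 protease inhibitor and lipoxygenase genes 4 were weaker and 1 stronger, among them the miraculin-type inhibitor Solyc03g020010.1 (-4.17 in sdg33 and -7.84 in WT). Of 41 cytochrome P450 genes, 15 were weaker and 9 stronger. Solyc10g078240.2, described by Arabidopsis CYP98A3 of phenylpropanoid synthesis, was lower in both organs, and its organ difference was -0.59 in sdg33 and 1.30 in WT (difference -1.89, SE 0.09, adjusted p = 1.09e-12).

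Of 42 heat shock and chaperone genes tested against WT, 12 were weaker and 14 stronger, and 21 had a negative and 5 a positive difference. The DnaJ-like gene Solyc02g083835.1, of co-chaperones of HSP70, had 4710, 5378.5 and 6940 in sdg33 shoots and 2259, 4014.5 and 5678 in sdg33 roots, against 72, 122 and 184 in WT shoots and 790, 1614 and 3142 in WT roots. Shoot minus root was 0.54 in sdg33 and -3.75 in WT (difference 4.29, SE 0.24, adjusted p = 1.51e-11). Another SET domain gene, annotated as SETD1B-like (Solyc09g009220.3), had 96, 118 and 158 in sdg33 shoots and 335, 386 and 474 in sdg33 roots, against 782, 997.5 and 1315 in WT shoots and 644, 672 and 741 in WT roots. It was root-high in sdg33 by -1.71 and shoot-high in WT by 0.54 (difference -2.25, SE 0.10, adjusted p = 6.84e-13). It was the 1 called of 3 SET domain genes tested. SDG34 (Solyc06g059960.3) differed by -0.26 (SE 0.16, adjusted p = 0.191).

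Of 39 genes of chloroplast-genome type tested against WT, 19 were weaker and 2 stronger. By the call within shoots, 27 were lower and 2 higher in sdg33, beside 2.66% and 3.03% of all genes. The Ycf1 gene model Solyc11g021310.1 had 4, 15.5 and 32 in sdg33 shoots and 6, 9 and 12 in sdg33 roots, against 97, 150.5 and 192 in WT shoots and 2, 11.5 and 28 in WT roots. These models lie in the nuclear annotation and resemble plastid genes, so reads could be shared with plastid copies and the values are uncertain. Of 12 miRNA loci tested, 1 was weaker and 2 stronger. Reads at the locus of sly-MIR156a were 3, 18 and 23 in sdg33 shoots and 70, 98 and 232 in WT shoots, with at most 1 in any root library of either genotype (difference -2.57, SE 0.53, adjusted p = 0.000442), and this call was lost with a pseudocount of 0.1 (adjusted p = 0.166). Reads at sly-MIR167b were 105, 185.5 and 219 in sdg33 shoots and 21, 26 and 30 in sdg33 roots, against 8, 43 and 71 in WT shoots and 12, 25 and 31 in WT roots (difference 2.08, SE 0.44, adjusted p = 0.000501). These are reads of the locus, and mature miRNAs were not measured.

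**Figure D4:**
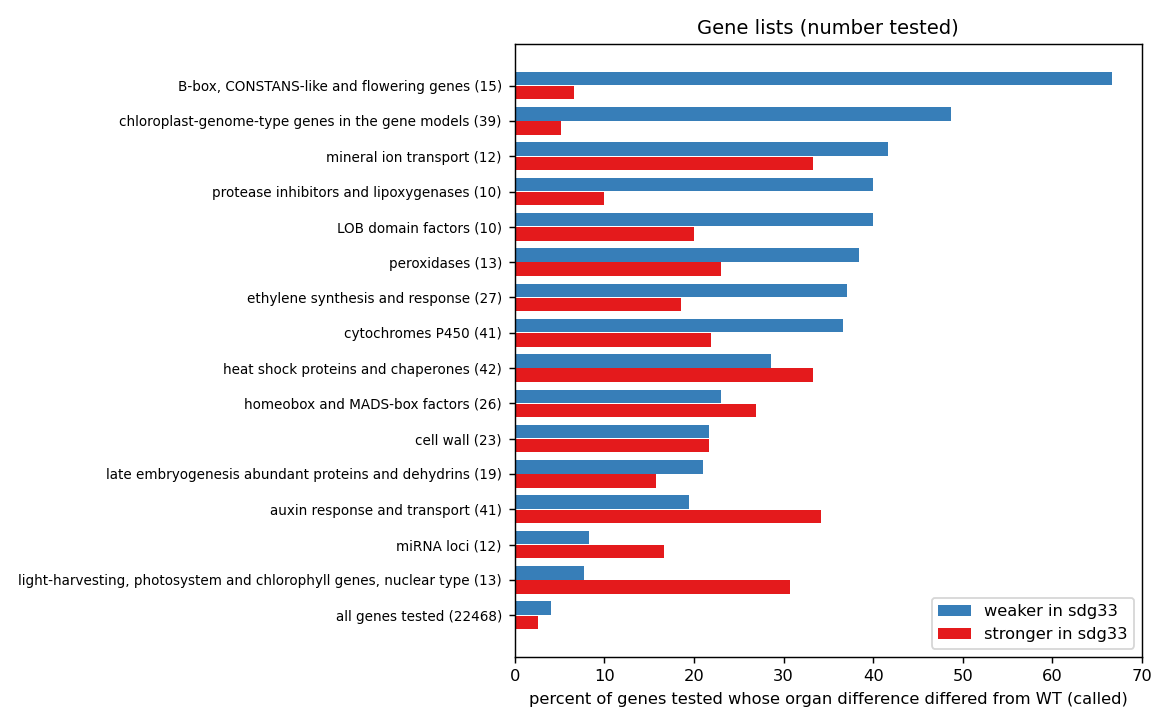
Share of the genes tested in each list whose organ difference was called weaker (blue) or stronger (red) in sdg33 than in WT, with the number tested in parentheses and all genes as the lowest pair of bars. Lists with at least 10 genes tested are shown. The B-box, CONSTANS-like and flowering list has 10 of 15 weaker, and nearly all described genes had been chosen by the study in these libraries.

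The sdg33 organ difference also depended on N. The same test was not run in WT or sdg34, so this dependence is not shown to be particular to sdg33. The organ difference under +N minus that under -N was called for 574 of 21728 genes (2.64%), with 207 positive (0.953%) and 367 negative (1.69%), and 4522 had an adjusted p under 0.05 (20.8%). The larger N response lay in roots for 408 of the 574 genes and in shoots for 166, and the share over all genes was not counted. The difference was larger under +N in 331 genes and under -N in 239, and it turned in 4. A response to low sulfur gene (Solyc03g096770.1) had 63 to 72 under -N and 1582 to 2900 under +N in sdg33 shoots, and 42 to 52 under -N and 14 to 20 under +N in sdg33 roots. Its organ difference was 0.49 under -N and 6.82 under +N (adjusted p = 7.51e-07). A multicystatin gene (Solyc00g071180.3), of inhibitors of cysteine proteases, had an organ difference of -2.59 under -N and 2.46 under +N (adjusted p = 0.00455), and the P450 gene Solyc01g094130.2 had -6.04 under -N and -2.04 under +N (adjusted p = 0.000718).

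In the other direction, the heat shock factor gene HsfA7 (Solyc09g065660.3) had 38 to 121 under -N and 632 to 928 under +N in sdg33 roots, with at most 7 in sdg33 shoots. Its organ difference was -4.17 under -N and -8.84 under +N (adjusted p = 0.0102). Solyc01g009260.1, annotated as ribosomal protein L5 and described in Arabidopsis as a protein of unknown function, had 3.75 under -N and -0.90 under +N (adjusted p = 0.0012), with values of at most 28 in any sdg33 library. WT roots also rose for Solyc01g009260.1, with 0 to 2 under -N and 31 to 32 under +N, while WT shoots had 32 to 52. The other genes named for N dependence are given for sdg33 alone. A VQ motif gene (Solyc02g068470.1) had 1.29 under -N and -3.35 under +N (adjusted p = 0.0129). With a pseudocount of 0.1 the N dependence of HsfA7 (adjusted p = 0.101), Solyc02g068470.1 (0.0633) and Solyc01g094130.2 (0.0701) did not pass the test. SDG33 itself had -1.24 under -N and -0.40 under +N (adjusted p = 0.0151).

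**Figure D5:**
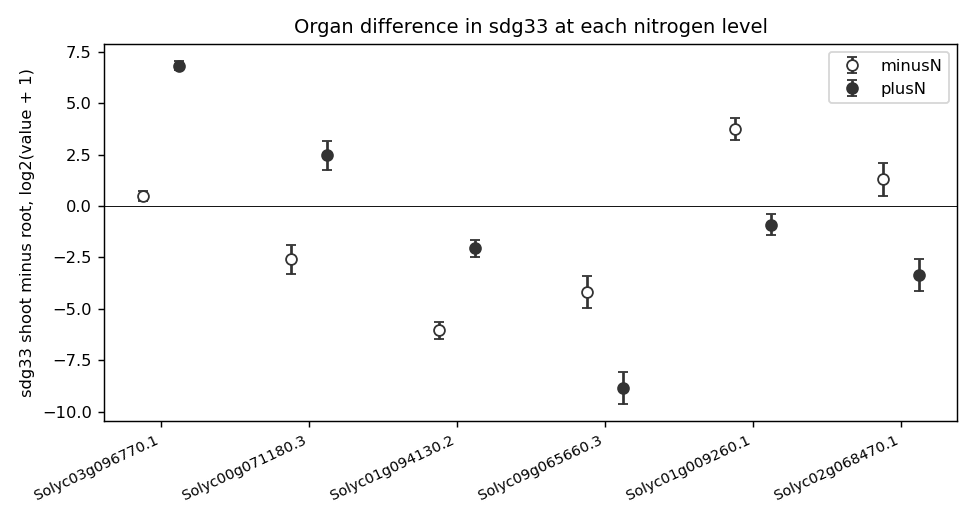
Shoot minus root difference in sdg33, on the log2(value + 1) scale with its SE, under -N (open) and +N (filled) for the 6 genes named for their N dependence. The low sulfur gene moves to 6.82 under +N, and the HsfA7 gene moves to -8.84.

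The organ difference of sdg33 was also tested against that of sdg34, the mutant of the related gene. Of 22257 genes, 15 were called (0.0674%), with 5 positive (0.0225%) and 10 negative (0.0449%), and 394 had an adjusted p under 0.05 (1.77%). Of the 1496 genes called against WT, 1405 were tested here and had a median absolute difference to sdg34 of 0.38, while the median to WT, which the choice of genes fixed, was 2.55 over the 1496. Among the 1405, 51 had an adjusted p under 0.05 against sdg34 and 8 were called, beside 1.77% and 0.0674% of all genes. A difference from WT given above is not by itself particular to sdg33. A cytochrome P450 gene of the CYP72A type (Solyc07g055460.3) had 841, 1357 and 1660 in sdg33 shoots and 630, 737 and 994 in sdg33 roots, while sdg34 roots had 57 to 176. No root library of the mutants overlapped, and the sdg33 minus sdg34 difference was -2.78 (adjusted p = 1.82e-05). Its neighbor in the numbering, Solyc07g055440.2, had 17, 21.5 and 43 in sdg33 roots and at most 4 in sdg34 roots (difference -2.49, adjusted p = 0.00469). This call was lost with a pseudocount of 10 (-0.95, adjusted p = 0.0552) and with either N level alone (adjusted p = 0.0703 under -N and 0.0823 under +N). A patatin gene (Solyc04g079260.3), of lipid acyl hydrolases, had 20, 79 and 94 in sdg33 roots and 1 to 93 in sdg34 roots (difference -3.38, adjusted p = 0.0322), and a Rossmann-fold gene (Solyc06g083470.3) differed by 2.03 (adjusted p = 0.0427). The calls of the patatin and Rossmann-fold genes were lost without 1 of many single libraries, with a pseudocount of 10 (adjusted p = 0.0665 for the patatin gene and 0.21 for the Rossmann-fold gene) and with same-numbered shoots and roots as pairs (0.109 and 0.094). With these pairs as a block, 8 genes were called in place of 15.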

How the data were processed

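RNA was sequenced from shoots and roots of sdg33, sdg34 and WT tomato, grouped by the labels. The authors mapped reads with BBmap and assigned them to gene models and miRNA loci with featureCounts. The deposited values, recorded here as a score, are whole numbers, and all 36 libraries hold the same sorted values (12678 zeros in 35872 rows), as full quantile normalization by the authors gives. Depth per library is therefore unknown.

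The log2(value + 1) scale was used with limma 3.58.1 in R 4.3.3 (lmFit, eBayes with trend, Benjamini-Hochberg). A gene was tested where 3 or more libraries of a fit reached 10. The organ fit had N level as covariate, and fits of 24 libraries gave the differences to WT and sdg34. Members and lists were chosen with earlier results of these data known. Named genes were those the study names, the largest described differences by direction or class, and up to 2 per list with the smallest adjusted p. Descriptions came from the study's supplementary lists. The organ fits and the comparisons between genotypes were tested on simulated data. Replicates are pools of plants, and p-values measure the spread between pools. Alternatives were other pseudocounts, filters, scalings, blocks, cut-offs, single N levels, a joint fit, no trend and each library left out. Array weights and a minimum in the lower organ were added after seeing the data. The authors' own comparisons were not used.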

Additional observations from a re-analysis of the deposited data

Results flagged for a closer look

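Organ differences that differed between groups are given here as values. Between sdg33 and WT they differed for 1496 genes, between +N and -N within sdg33 for 574, and between sdg33 and sdg34 for 15, each by the interaction test in limma.

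Against WT, with sdg33 minus WT in the log2 organ difference, the values were 7.78 for ERF E.2 (Solyc09g089930.2), -7.65 for the PHD finger gene (Solyc06g082040.2), 6.46 for the acyltransferase (Solyc05g052670.1) and 5.82 for the AP2/B3 factor (Solyc04g007000.1). They were 6.93 for Solyc08g079230.1, 6.20 for Solyc07g066330.3, 5.86 for Solyc02g068170.1 and 5.18 for Solyc04g040120.1. They were -6.28 for Solyc10g085870.1 and -6.26 for Solyc10g007570.3, and 6.94 for Solyc06g066420.3, 4.62 for Solyc02g067050.3 and 4.60 for Solyc07g056600.1. They were -5.91 for Solyc09g082600.2, -5.75 for Solyc02g067440.3 and -5.74 for Solyc09g061730.2. Where an organ was listed at 0, limma gave an adjusted p of 7.95e-15 for Solyc11g068390.1, 7.25e-12 for Solyc06g068130.3, 8.4e-09 for Solyc01g067460.2 and 1.6e-12 for Solyc05g053860.3.

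Within sdg33, +N minus -N in the organ difference was 6.34 for Solyc03g096770.1, 5.05 for Solyc00g071180.3 and 4.0 for Solyc01g094130.2, and -4.66 for Solyc09g065660.3, -4.65 for Solyc01g009260.1 and -4.64 for Solyc02g068470.1. Against sdg34 the difference was 2.03 for Solyc06g083470.3, -3.38 for Solyc04g079260.3, -2.78 for Solyc07g055460.3 and -2.49 for Solyc07g055440.2.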

How the results depend on the processing

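Counts of called genes kept within 1.5 times under most alternatives. With at least 10 required in every library they were 2623 for the sdg33 organ difference (1519 shoot-high, 1104 root-high), 2671 for WT (1593 and 1078), 481 against WT (267 weaker, 214 stronger), 3 against sdg34 and 215 by N (59 positive, 156 negative). That filter removes genes silent in an organ. With a log2 cut-off of 1 they were 10312 (5082 and 5230), 10723 for WT (5347 and 5376), 4838 against WT (2803 and 2035), 78 against sdg34 and 2076 by N (929 and 1147). With no cut-off they were 17105 (7929 and 9176), 16869 for WT (7473 and 9396), 10936 against WT (6160 and 4776), 394 against sdg34 and 4522 by N (2117 and 2405). A pseudocount of 10 gave 730 against WT (410 and 320), 3 against sdg34 and 334 by N (101 and 233). A mean of 10 in the lower organ, chosen after seeing the data, gave 987 against WT, with 374 stronger. Against sdg34 a pseudocount of 0.1 gave 32, no filter 23 and the +N libraries alone 41.

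Leaving out a library gave 6145 to 6277 for sdg33, 6512 to 6637 for WT, 1452 to 1555 against WT, 474 to 691 by N and 10 to 26 against sdg34, where the count was 23 without sdg33 +N shoot replicate 1 and 26 without replicate 3 of that group.

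Same-numbered shoots and roots of sdg33 did not deviate together (r of -0.257 to 0.07 in 6 pairs). In WT and sdg34, r was -0.131 to 0.194, over 0.1 in 5 of 12 pairs, and 5 correlated best with their own number. The labels do not say whether organs share plants, so the numbers were not taken to pair the samples. With replicate pairs as a block the counts were 6233 for sdg33, 1492 against WT and 8 against sdg34.

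Of the values of named genes, 16 changed sign. The sdg33 organ difference did so with -N libraries alone for Solyc11g021310.1 (-0.17), Solyc06g075510.3 (-0.22) and Solyc06g009140.3 (0.68), and with +N libraries alone for Solyc11g006710.2 (-0.57) and Solyc01g107190.3 (-0.22). It did so with array weights for Solyc06g075510.3 (-0.041), and without single libraries for Solyc06g075510.3 (4 libraries, range over all -0.0643 to 0.121) and Solyc11g006710.2 (2 libraries, range -0.0238 to 0.2598). The difference to WT did so for Solyc07g008980.3 with a pseudocount of 10 (-0.35), for Solyc01g087040.2 (-0.49) and Solyc06g059960.3 (0.18) with +N libraries alone, and for Solyc01g096340.3 without sdg33 +N shoot replicate 3 (range over all libraries left out -0.26 to 0.00303). The causes were not tested. By an adjusted p under 0.05 alone, whatever the size, further values of named genes stopped passing in 68 cases and began to pass in 29. By the same rule 4282 kept their direction and side.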
